A study of Mus musculus with 6 samples.

Results

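The mast cell proteases are the secreted enzymes that fill mast cell granules, and 9 of their genes were followed here in irradiated mouse skin: the tryptase genes Tpsb2, Tpsab1 and Tpsg1, the chymase family genes Cma1, Mcpt1, Mcpt2, Mcpt4 and Mcpt8, and the carboxypeptidase gene Cpa3. They were taken as the rows of the expression table that carry exactly 1 gene symbol equal to one of these names. Each gene had 1 such row, so the 9 genes are 9 of the 35556 rows (transcript clusters) of the table. Dorsal skin came from 3 Cbl-b-/- mice (spelt clb-b -/- in the labels) and 3 wild type (WT) mice, matched for sex and age and described in the methods as BL6. All 6 mice were shaved, given a single UVB dose of 80 mJ/cm2 and sampled 24 h later. The age is not given in the sources used here, nor is any restriction of the deletion to a tissue. Cbl-b is a ubiquitin ligase that restrains immune cell activation. Every mouse was irradiated, so the values compare genotypes after UVB and say nothing of the response to UVB itself. Skin taken before irradiation was not analysed here.

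Mast cells of connective tissue, including the dermis, store tryptases, chymases and carboxypeptidase A3 on the proteoglycan serglycin and release them when the cells are activated. In the mouse, Tpsb2 (mouse mast cell protease 6), Mcpt4, Cma1 (protease 5) and Cpa3 are the granule enzymes of this connective tissue type. Mcpt1 and Mcpt2 are those of mucosal mast cells, as in the gut, and Mcpt8 is an enzyme of basophils. UVB is a known activator of dermal mast cells, and their proteases cleave peptides such as endothelin-1 as well as matrix proteins.

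In RefSeq the 3 tryptase genes stand next to each other on chromosome 17, the chymase family genes lie together on chromosome 14, and Cpa3 lies on chromosome 3. RefSeq upstream sequence (build GRCm38.p6) was at hand for 6 of the 9 genes, as 7 stretches since Tpsg1 has 2 starts. The 250 bases before the start are shown for Mcpt4 and Mcpt1, which are alike although the array placed Mcpt4 above background and Mcpt1 at it, and for Cma1 and Cpa3 as the other granule enzymes of skin mast cells. Each is written 5′ to 3′ along the gene, and capitals mark GATAA or its reverse complement TTATC, the core bound by GATA factors such as GATA2 of mast cells.
Mcpt4 (chr14:56062311-56062560, minus strand): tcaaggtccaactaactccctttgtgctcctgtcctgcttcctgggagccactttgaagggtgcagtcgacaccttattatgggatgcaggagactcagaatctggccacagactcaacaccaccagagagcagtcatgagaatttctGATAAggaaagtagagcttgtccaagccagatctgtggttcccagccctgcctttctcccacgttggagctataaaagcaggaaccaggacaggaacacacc
Mcpt1 (chr14:56017714-56017963, plus strand): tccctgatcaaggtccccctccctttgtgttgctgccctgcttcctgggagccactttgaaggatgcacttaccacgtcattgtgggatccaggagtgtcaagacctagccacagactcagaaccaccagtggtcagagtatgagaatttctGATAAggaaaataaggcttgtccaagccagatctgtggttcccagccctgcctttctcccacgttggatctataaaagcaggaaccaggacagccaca
Cma1 (chr14:55944676-55944925, minus strand): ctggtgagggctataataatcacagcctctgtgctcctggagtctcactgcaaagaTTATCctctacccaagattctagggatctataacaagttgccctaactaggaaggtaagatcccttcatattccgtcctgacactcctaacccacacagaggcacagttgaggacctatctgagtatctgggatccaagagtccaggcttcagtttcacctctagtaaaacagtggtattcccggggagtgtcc
Cpa3 (chr3:20242182-20242431, minus strand): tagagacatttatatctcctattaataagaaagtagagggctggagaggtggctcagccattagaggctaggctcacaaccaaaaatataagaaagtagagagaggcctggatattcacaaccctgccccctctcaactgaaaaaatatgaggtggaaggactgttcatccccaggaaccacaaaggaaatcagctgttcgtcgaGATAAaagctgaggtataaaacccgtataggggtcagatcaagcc

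The Mcpt4 and Mcpt1 stretches were identical at 213 of 260 aligned positions (81.9%), whereas the 19 other pairs of stretches of different genes had 47.0% to 54.8%. In both, GATAA lies in the same surroundings, with its last base 98 bases before the start in Mcpt4 and 94 in Mcpt1. In Cpa3 it lies 41 bases and in Cma1 190 bases before the start. GATAA, searched on both strands, was in 5 of the 7 stretches (Tpsg1 at 1 of its starts, Cma1, Mcpt1, Mcpt4 and Cpa3) and in 22.6% of 32851 upstream stretches of the same length. TATAAA was in 3 of the 7 (Mcpt1, Mcpt4 and Cpa3; 12.4% of all stretches) and the E-box CANNTG in 4 of the 7 (66.2% of all stretches). These matches describe letters and are no evidence of binding.

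The values are normalized expression on the log2 scale, as the authors deposited them. The genotypes were compared with limma over all 35556 rows, as Cbl-b-/- minus WT, with p-values adjusted over all rows by the method of Benjamini and Hochberg. A row met the study's thresholds where the unadjusted p in that fit was under 0.05 and the difference at least 1.5-fold (0.585 on the log2 scale). The test named in the study's methods, which takes each row's spread from that row by itself, was run as an alternative. It was run here on the 6 irradiated arrays, and the methods do not say whether the study's own fit also held the unirradiated ones. The genes were chosen by name as a family, with the fold changes and p-values of this same comparison known, so the p-values below describe the fit and are not independent evidence. Array medians lay between 6.30 and 6.34. Cblb, the targeted gene, was lower in all 3 Cbl-b-/- arrays (8.61 to 8.69) than in all 3 WT arrays (9.66 to 9.90) as the labels say. As a guide to background, 95% of 1023 rows of olfactory receptor genes, which skin is not known to use, had a mean of 5.44 or less. By that measure Tpsb2, Tpsg1, Cma1, Mcpt4 and Cpa3 lay above background, and Tpsab1, Mcpt1, Mcpt2 and Mcpt8 did not.

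The tryptase gene Tpsb2 was the member that met the study's thresholds. Tpsb2 encodes a tetrameric trypsin-like protease and measured 7.31, 7.32 and 7.70 in the Cbl-b-/- arrays and 7.14, 6.61 and 6.59 in the WT arrays. Every Cbl-b-/- array lay above every WT array, and the lowest of the former was 0.18 above the highest of the latter, WT replicate 1. The means were 7.44 ± 0.22 (SD, n = 3) and 6.78 ± 0.31 (SD, n = 3), a log2 fold change of 0.66 (95% interval 0.22 to 1.11) or 1.59-fold. The unadjusted p in limma was 0.00976 and the adjusted p 0.686. Without Cbl-b-/- replicate 3, WT replicate 2 or WT replicate 3 the log2 fold change of Tpsb2 was 0.54, 0.58 or 0.57, under the fold threshold, and without WT replicate 1 it was 0.84.

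Tpsab1, the tryptase gene beside Tpsb2, encodes protease 7 in some strains, whereas RefSeq lists it as a transcribed pseudogene in the reference strain. The methods describe these mice as BL6, and whether they make a protease from Tpsab1 was not tested. The Tpsab1 row measured 5.55, 5.74 and 5.56 in the Cbl-b-/- arrays and 5.25, 5.05 and 5.06 in the WT arrays. Here too the genotypes did not overlap, and the spread within each genotype was small (SD 0.11 in both). The log2 fold change was 0.50 (95% interval 0.27 to 0.73, unadjusted p = 0.00169, adjusted p = 0.593 in limma), under the fold threshold. Its level was near background, and Tpsab1 and Tpsb2 are close in sequence, so signal passing between their probes was not tested. Tpsg1, the gene of the transmembrane tryptase gamma, measured 5.94, 6.20 and 5.99 against 5.95, 5.77 and 5.66. The lowest Cbl-b-/- value of Tpsg1 was level with WT replicate 1, and its log2 fold change was 0.26 (95% interval −0.02 to 0.53).

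Among the chymase genes, Mcpt4 and Cma1 were detected above background and Mcpt1 and Mcpt2 were not. Mcpt4, the mouse protease held to be closest in activity to human chymase, measured 8.29, 8.41 and 8.78 in the Cbl-b-/- arrays and 8.25, 7.93 and 7.78 in the WT arrays. The genotypes did not overlap, but WT replicate 1 came within 0.030 of the lowest Cbl-b-/- array. The log2 fold change of Mcpt4 was 0.50 (95% interval 0.09 to 0.91, unadjusted p = 0.0249, adjusted p = 0.743 in limma), or 1.41-fold. Cma1, which encodes a protease of chymase fold with elastase-like activity, measured 6.09, 6.28 and 6.69 against 6.11, 5.69 and 5.75. WT replicate 1 lay above the lowest Cbl-b-/- array, so the genotypes of Cma1 overlapped. Its log2 fold change was 0.51 (95% interval 0.06 to 0.95, unadjusted p = 0.0314 in limma).

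The mucosal chymase genes were at background. Mcpt1 lay between 3.37 and 3.46 in the Cbl-b-/- arrays and between 3.30 and 3.52 in the WT arrays, and Mcpt2 between 2.99 and 3.12 and between 2.99 and 3.06. The genotypes overlapped in both. The 95% intervals of their log2 fold changes ran from −0.20 to 0.22 for Mcpt1 and from −0.15 to 0.22 for Mcpt2, so a 1.5-fold difference in signal lies outside both intervals, though at this level the signal need not follow the RNA. The upstream stretch of Mcpt1 is the one most like that of Mcpt4, which was detected. Different probes read the 2 genes, so their levels are not set against each other as amounts of RNA.

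Mcpt8, the basophil gene of the family, measured 4.39, 5.0 and 4.49 in the Cbl-b-/- arrays and 4.04, 4.10 and 4.27 in the WT arrays. The genotypes did not overlap, with Cbl-b-/- replicate 2 the highest, at a level under the background guide. The log2 fold change of Mcpt8 was 0.49 (95% interval 0.08 to 0.90, unadjusted p = 0.0254, adjusted p = 0.748 in limma), and without Cbl-b-/- replicate 2 it was 0.31. Of the other genes of basophils, Cd200r3, an activating receptor, measured 4.21, 4.57 and 4.24 against 3.99, 3.91 and 3.65 (log2 fold change 0.49, unadjusted p = 0.0114 in limma). Prss34, another basophil and mast cell protease gene, stood at 0.28 (unadjusted p = 0.0494 in limma). Both were near background as well. Of the 5 basophil markers, which include Mcpt8 itself, 0 met the study's thresholds. Cd200r3, Prss34 and Mcpt8, each under the background guide, passed the unadjusted p as higher in limma, as 3.68% of all rows did. Fcer1a (0.21), the marker above the guide, and Il4 (0.23) did not pass. In the methods' own test 1 of the 5, Cd200r3, passed as higher, as 4.62% of all rows did.

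Cpa3, which encodes the zinc carboxypeptidase that trims the C-terminal residues of peptides, had the widest spread. It measured 8.52, 8.84 and 9.52 in the Cbl-b-/- arrays and 8.84, 8.16 and 7.91 in the WT arrays. The genotypes overlapped, since WT replicate 1 reached the level of Cbl-b-/- replicate 2. The difference of the means, 8.96 ± 0.51 against 8.30 ± 0.48 (SD, n = 3), was 0.66 on the log2 scale (1.58-fold), and its 95% interval of −0.12 to 1.44 held 0. The unadjusted p of Cpa3 was 0.0842 in limma. Without WT replicate 1 its log2 fold change was 0.93 and without Cbl-b-/- replicate 3 it was 0.38.

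**Figure D1:**
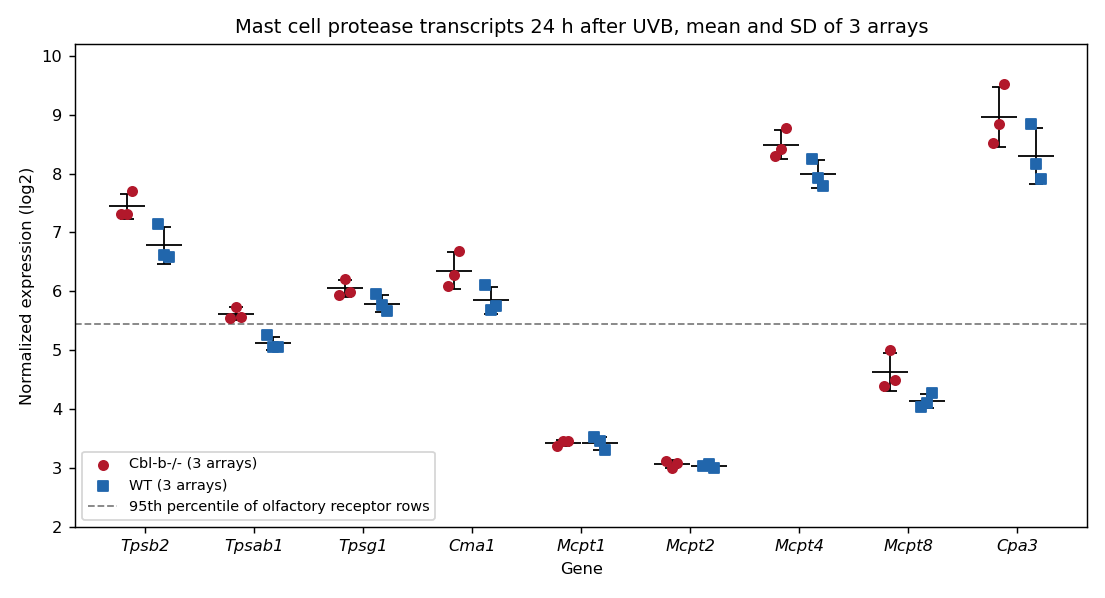
Normalized expression (log2 scale, vertical axis) of the 9 protease genes (horizontal axis) in irradiated skin. Circles are Cbl-b-/- arrays and squares WT arrays, black bars show each mean with its SD (n = 3), and the dashed line is the background guide of 5.44. The genotypes do not overlap in Tpsb2, Tpsab1, Mcpt4 and Mcpt8, and Mcpt1 and Mcpt2 lie far under the line.

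Over the 9 genes, 1 was higher in Cbl-b-/- skin by the study's thresholds and 0 lower, where 0.276% of all rows were higher and 0.945% lower. At an unadjusted p under 0.05 in limma, Tpsb2, Tpsab1, Cma1, Mcpt4 and Mcpt8 were higher and 0 lower (3.68% and 2.87% of all rows). In 4 of the 9 every Cbl-b-/- array lay above every WT array, as in 8.66% of all rows. At an adjusted p under 0.05 in limma 0 of the 9 passed, where 1 row of the table did (0.00281%), and the lowest adjusted p among them was 0.593. In the methods' own test, 2 of the 9 (Tpsb2 and Tpsab1) were higher at an unadjusted p under 0.05 and 0 lower, where 4.62% of all rows were higher and 2.36% lower. Single arrays moved the count that met the thresholds. Without Cbl-b-/- replicate 1, Cma1 (0.64), Mcpt4 (0.60), Mcpt8 (0.61) and Cpa3 (0.88) met them beside Tpsb2, and without WT replicate 1 Cma1 (0.63), Mcpt4 (0.63) and Cpa3 (0.93) did. Without Cbl-b-/- replicate 3, WT replicate 2 or WT replicate 3, 0 of the 9 did. With each of the 6 arrays left out, Tpsb2 and Tpsab1 kept an unadjusted p under 0.05 in 6 of 6 fits, Mcpt8 in 4, Mcpt4 in 3 and Cma1 in 2. The median log2 fold change of the 9 over all arrays was 0.50, beside 0.02 over all rows. All 9 were above 0, but Mcpt1 (0.0098) and Mcpt2 (0.035), both at background, lay near that median of all rows. The share of all rows above 0 was not counted, here or for the lists below. The genes share cells and arrays and were chosen with the outcome known, so nothing further is read from these counts. With 3 arrays in each group an exact permutation test of a single gene cannot give a two-sided p under 0.10, and Tpsb2, Tpsab1, Mcpt4 and Mcpt8 each gave 0.10.

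**Figure D2:**
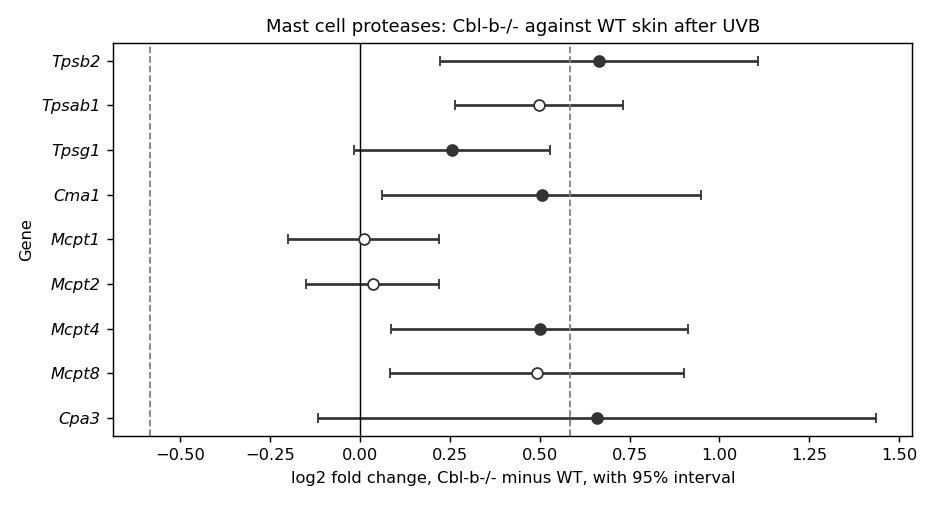
Log2 fold change of the 9 protease genes, Cbl-b-/- minus WT (horizontal axis), from limma; points are estimates and whiskers 95% intervals, filled points lie above the background guide and open points do not, and dashed lines mark the 1.5-fold threshold (0.585). The estimates of Tpsb2 and Cpa3 lie beyond the line, and the interval of Cpa3 spans 0.

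The 5 genes listed as the connective tissue group were Tpsb2, Tpsab1, Cma1, Mcpt4 and Cpa3. Among them Tpsab1 was near background and is listed by RefSeq as a pseudogene. The 5 genes had log2 fold changes of 0.50 to 0.66, and the interval of each held the estimates of the other 4. Their mean level was 7.15, 7.32 and 7.65 in Cbl-b-/- replicates 1, 2 and 3 and 7.12, 6.69 and 6.62 in WT replicates 1, 2 and 3. The arrays of a genotype therefore differed among themselves. WT replicate 1 lay close to Cbl-b-/- replicate 1, while WT replicates 2 and 3 lay below all others. Cbl-b-/- replicate 3 was the highest array in Tpsb2, Cma1, Mcpt4 and Cpa3, and Cbl-b-/- replicate 2 in Tpsab1, Tpsg1 and Mcpt8. After each gene was centred on its mean over the 6 arrays, Mcpt4 lay nearest to the mean profile of the 5 genes (root mean square difference 0.048). Cma1 (0.062) and Tpsb2 (0.073) followed. Each of the 5 is part of that mean, so closeness to it is partly fixed in advance. Tpsab1 (0.19), with a smaller range, and Cpa3 (0.20), with a larger one, lay farther off. In whole skin, more mast cells and more RNA per mast cell cannot be told apart.

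Of 15 measured genes that hold, load or release granule contents, 0 met the study's thresholds. In limma 1 passed the unadjusted p as higher and 0 as lower, where 3.68% of all rows were higher and 2.87% lower. Of the 15, 10 had a log2 fold change above 0, and the median was 0.042, beside 0.02 over all rows. Srgn, the core protein of serglycin, measured 11.44, 12.01 and 11.16 in the Cbl-b-/- arrays and 11.86, 11.85 and 11.62 in the WT arrays. Ctsc, which encodes cathepsin C, the activator of granule serine proteases such as chymases, had a log2 fold change of −0.0037. The genotypes overlapped in both, and many other skin cells also express these genes. Slc18a2, the vesicle transporter that loads histamine and serotonin, passed the unadjusted p as higher: it measured 5.65, 5.38 and 5.76 against 5.31, 5.19 and 5.11 (log2 fold change 0.39, standard error 0.12, unadjusted p = 0.0150 in limma). Its genotypes did not overlap, though its mean was under the background guide. Vamp7 (−0.15) and Ext1 (0.14) were next by p and did not pass.

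Of 16 measured genes of mast cell identity, 0 met the study's thresholds, and 4 passed the unadjusted p as higher in limma and 0 as lower. Over all rows, 3.68% passed as higher and 2.87% as lower. At an adjusted p under 0.05 in limma 0 of the 16 passed. Of the 16, 13 had a log2 fold change above 0 (median 0.27, beside 0.02 over all rows). Gata2, a transcription factor that mast cells need, measured 7.21, 7.35 and 7.59 in the Cbl-b-/- arrays and 7.08, 6.98 and 6.93 in the WT arrays. In the methods' own test 1 of the 16, Gata2, had an unadjusted p under 0.05, so the calls of the other 3 rest on limma. In that test 4.62% of all rows were higher at this p. The genotypes of Gata2 did not overlap (log2 fold change 0.39, standard error 0.12, unadjusted p = 0.0135 in limma). Tph1, the enzyme that begins serotonin synthesis in mast cells, did not overlap either, with a log2 fold change of 0.32 (unadjusted p = 0.0321 in limma). Alox5 and Ltc4s, enzymes of leukotriene synthesis, stood at 0.45 and 0.35 (unadjusted p = 0.0357 and 0.0386 in limma), both with overlap. Ltc4s was outside the rule for naming and is given to complete the count.

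The surface receptors that define mast cells did not pass. Kit, the receptor for stem cell factor, measured 6.42, 6.71 and 6.83 in the Cbl-b-/- arrays and 6.77, 6.61 and 7.38 in the WT arrays. Its log2 fold change was −0.27 (95% interval −0.79 to 0.26). With an array left out it ran from −0.42 (without WT replicate 2) to −0.039 (without WT replicate 3). Kit is also used by melanocytes, whose markers were highest in WT replicate 3, and their part in the Kit values was not tested. Fcer1a and Ms4a2, chains of the IgE receptor, had log2 fold changes of 0.21 (standard error 0.25) and 0.36 (standard error 0.22), with overlap in both. Mrgprb2, the mast cell receptor for cationic peptides, stood at 0.24 (standard error 0.28). Mrgprb1, a receptor gene of the same family that is named here after its values were seen, had the highest estimate of the 16, 0.71 (95% interval −0.03 to 1.45), with 6.54, 6.44 and 7.43 against 6.47, 6.10 and 5.71. Hdc, which makes histamine and is also used by neutrophils, measured 8.0, 9.24 and 7.44 against 7.96, 8.08 and 7.72. Its high value was that of Cbl-b-/- replicate 2, without which the log2 fold change of Hdc turned from 0.30 to −0.20.

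**Figure D3:**
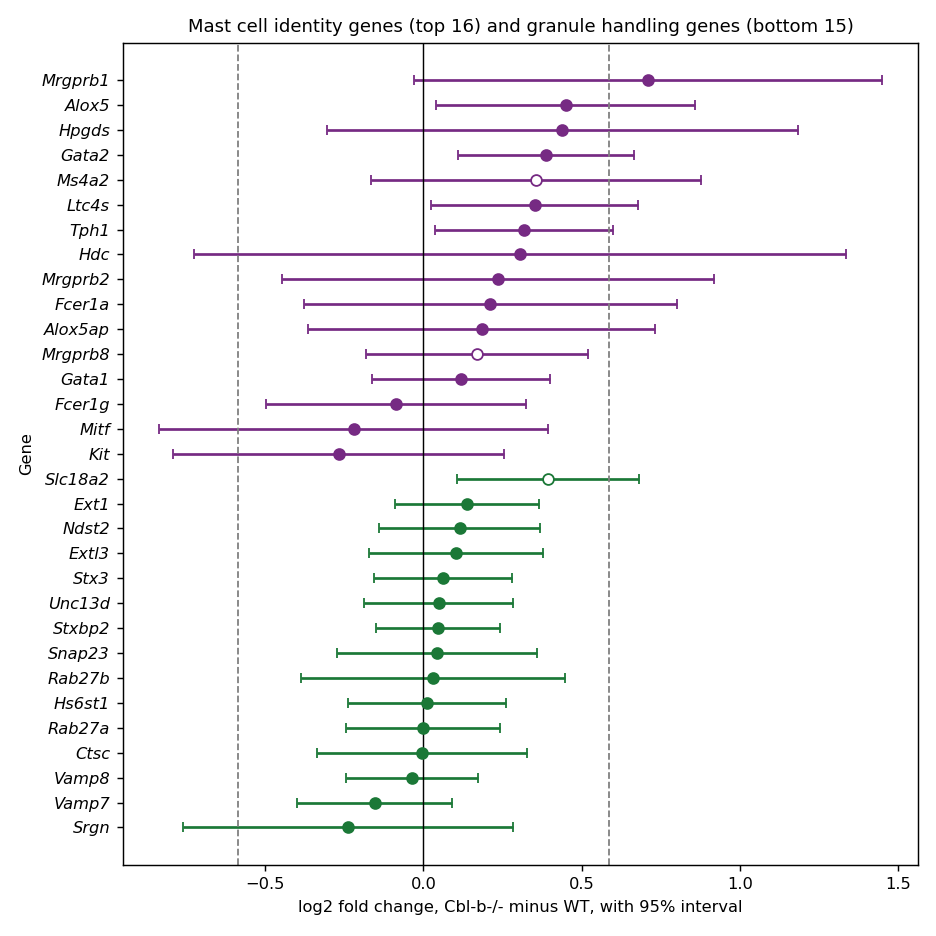
Log2 fold change, Cbl-b-/- minus WT (horizontal axis), of 16 genes of mast cell identity (purple, top) and 15 of granule handling (green, bottom); points are limma estimates and whiskers 95% intervals, open points lie under the background guide, and dashed lines mark 1.5-fold in either direction. The intervals of Alox5, Gata2, Ltc4s, Tph1 and Slc18a2 do not reach 0, and those of Kit and Fcer1a do.

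Related protease genes outside the 9 did not meet the thresholds. Of 8 measured granzyme and cathepsin genes of the chymase locus, 0 met them, and Ctsg, the gene of cathepsin G, had the lowest p (log2 fold change 0.25, unadjusted p = 0.0204 in limma) at levels of 4.17 to 4.55, under the background guide. Gzme (−0.17) and Gzmg (0.14) followed and did not pass. Of 9 measured genes of the tryptase locus 0 met the thresholds, and Prss29 (0.27, unadjusted p = 0.0224 in limma) and Prss34 passed the unadjusted p, both near background, with Prss32 next at 0.16. Among 12 other carboxypeptidase genes 0 met the thresholds and 0 passed the unadjusted p in limma, and the lowest p-values were those of Cpa6 (−0.37), Cpxm2 (0.36) and Cpa5 (0.17). In the methods' own test 2 genes of the chymase locus (Ctsg and Gzmg), 3 of the tryptase locus (Prss29, Prss32 and Prss41) and 1 carboxypeptidase gene (Cpa5) passed the unadjusted p, all higher. Prss41 is named to complete the count. Over all rows, 3.68% passed the unadjusted p as higher in limma and 4.62% in the methods' own test. The medians of the 3 lists were 0.0049, 0.11 and 0.056.

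Edn1 had a lower mean in irradiated Cbl-b-/- skin, though it did not pass the adjusted p. It encodes endothelin-1, a peptide that UVB-exposed keratinocytes release, that activates mast cells and that mast cell proteases degrade. Edn1 measured 6.45, 6.46 and 6.83 in the Cbl-b-/- arrays and 7.03, 7.03 and 7.07 in the WT arrays, so every Cbl-b-/- array lay below every WT array. The log2 fold change was −0.46 (standard error 0.12, unadjusted p = 0.00681, adjusted p = 0.685 in limma), under the fold threshold. A link between Edn1 and the protease values was not tested. In the list of 10 measured mast cell growth and activation factors, Edn1 was the gene that passed the unadjusted p and 0 met the study's thresholds. Il4 (0.23) and Tgfb1 (0.20) followed. In the list of 13 measured substrates, receptors and inhibitors of these proteases, 0 met the thresholds and 2 passed the unadjusted p, both lower. They were Edn1 and Serpina3n, the gene of a serpin, an inhibitor of serine proteases (log2 fold change −0.40, standard error 0.15, unadjusted p = 0.0313 in limma). In the methods' own test Edn1 passed and Serpina3n did not. Over all rows, 2.87% passed the unadjusted p as lower in limma and 2.36% in the methods' own test. A2m (0.24), the gene of a broad protease inhibitor, came next and did not pass.

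Markers of other skin cells differed between single arrays. The median level of 9 neutrophil markers was 9.32 in Cbl-b-/- replicate 2, the array highest in Tpsab1, Tpsg1 and Mcpt8, and 6.49 to 7.90 in the others. The median of 14 measured hair follicle markers was 8.90 in WT replicate 3 and 5.48 to 6.75 in the others, and that of 6 melanocyte markers was 8.17 in the same array and 5.90 to 6.60 in the others. WT replicate 3 was the lowest array in Tpsb2, Tpsg1, Mcpt4 and Cpa3, and in Mcpt1, which was at background. WT replicate 2 was the lowest in Tpsab1 and Cma1, with hair follicle and melanocyte medians of 5.65 and 6.42. The mean level of the 5 genes of the connective tissue group was 6.69 in WT replicate 2 and 6.62 in WT replicate 3. The median of 8 macrophage markers was highest in WT replicate 1 (9.52, with 8.64 to 9.27 in the others), the WT array nearest to the Cbl-b-/- arrays in the proteases. Medians of 6 measured keratinocyte markers (11.15 to 11.80) and 6 fibroblast markers (9.99 to 10.57) varied less, and that of 9 cytotoxic lymphocyte markers lay between 4.68 and 5.05. The 6 muscle markers had medians of 9.39 to 11.08. Myh2, a myosin heavy chain, was the gene of these lists that met the study's thresholds (log2 fold change 0.85), though not with the methods' own test. Over all rows, 0.276% met them as higher. The other 5 muscle markers were below 0, from −0.69 in Myh4 to −0.11 in Acta1, and did not pass, and the median of the 6 was −0.25. Elane, a neutrophil marker under the background guide, passed the unadjusted p as higher (log2 fold change 0.27, unadjusted p = 0.0465 in limma). Over all rows, 3.68% passed it as higher. The part of these cells in the protease values was not tested. With an array left out the log2 fold change of Tpsb2 ran from 0.54 to 0.84. It was under the fold threshold without Cbl-b-/- replicate 3 (0.54), WT replicate 2 (0.58) or WT replicate 3 (0.57). Leaving out an array drops a mouse and its mix of cells together, so these fits cannot separate the 2.

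**Figure D4:**
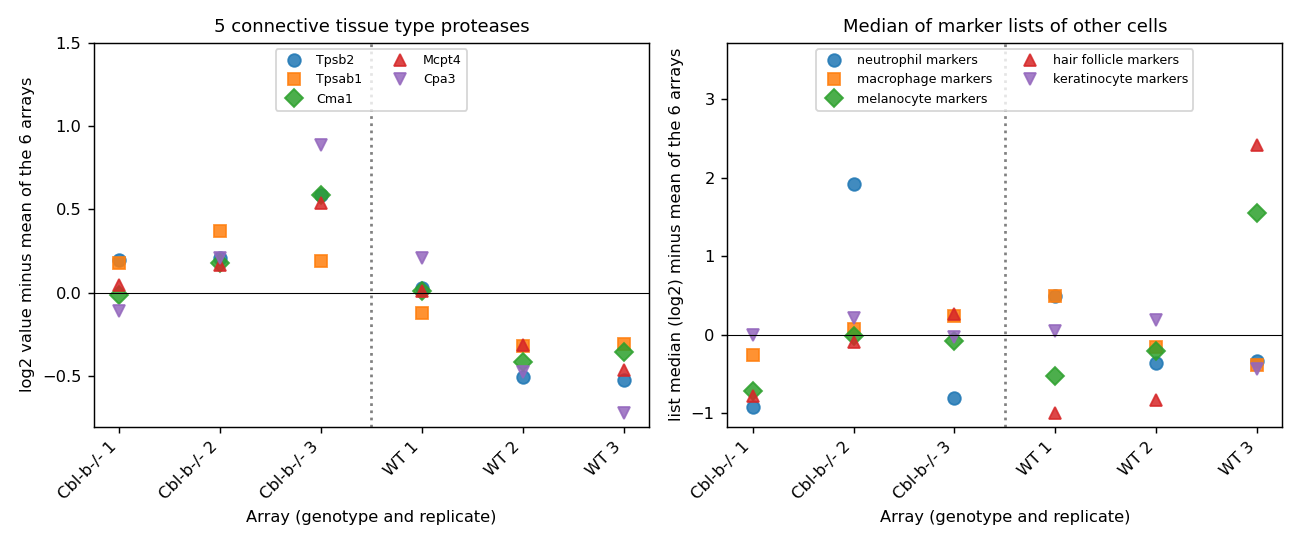
Left, log2 value of the 5 genes of the connective tissue group in each array minus the gene's mean over the 6 arrays. Right, the median of marker lists of other cells, centred in the same way. Horizontal axes give the array by genotype and replicate, and vertical axes log2 units on different scales. The 5 genes are highest in Cbl-b-/- replicate 3, except Tpsab1. The neutrophil list stands out in Cbl-b-/- replicate 2 and the hair follicle and melanocyte lists in WT replicate 3.

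A search for like profiles covered 12356 rows with 1 gene symbol and a level above the median row. Closest to the mean profile of the 5 genes of the connective tissue group were Cygb (root mean square difference 0.066), Loxl1 (0.072), Alox5 (0.10), Lipa (0.11) and Zfhx4 (0.11). The profile itself had a root mean square size of 0.35. Cygb and Loxl1 lay closer to it than Tpsb2 (0.073), and all 5 rows lay closer than Tpsab1 (0.19) and Cpa3 (0.20). Cygb, the gene of the globin cytoglobin, measured 8.80, 8.88 and 9.31 in the Cbl-b-/- arrays and 8.63, 8.36 and 8.15 in the WT arrays. Loxl1 encodes an enzyme of elastic fibre cross-linking, Lipa the lysosomal acid lipase and Zfhx4 a zinc finger homeobox protein. All 5 rows were highest in Cbl-b-/- replicate 3 and lowest in WT replicate 3. So was the mean profile they were matched to, which partly fixed this order in advance. Likeness over 6 arrays is a description and names no shared function.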

How the data were processed

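Total RNA of dorsal skin was measured on Mouse Gene 1.0 ST arrays of Affymetrix, with 1 array for each of 3 Cbl-b-/- and 3 WT mice. The authors normalized the arrays by RMA (Affymetrix Expression Console and Partek 6.5 in the submitters' processing notes) and deposited log2 values, with 1 row per transcript cluster. RMA shrinks differences at low signal, and the number of arrays limits the precision. Rows were named from the platform annotation: 21789 rows have 1 symbol, 1621 several and 12146 none. The genotypes were compared with limma 3.58.1 in R 4.3.3, without covariates, on all rows, a procedure tested on simulated data. The alternatives were the methods' one-way ANOVA, a variance trend, cyclic loess, quantile normalization, rows above the median level, a replicate block and leaving out each array. The members and gene lists were chosen with earlier results of these data known. All members were named, and from each other list the genes meeting the thresholds, otherwise at most 3 by p, plus defining genes (Kit, Fcer1a, Ms4a2, Hdc, Mrgprb2, Ctsc, Srgn and Prss34). Upstream sequences came from RefSeq (GRCm38.p6), with identity from global alignment in Biopython 1.88.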

Additional observations from a re-analysis of the deposited data

How the results depend on the processing

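Tpsb2 met the study's thresholds in all 6 alternatives that kept every array, and the number of members that met them was 1 in each. With any array left out that number ran from 0 to 5: it was 0 if Cbl-b-/- replicate 3, WT replicate 2 or WT replicate 3 was dropped, 4 if WT replicate 1 was and 5 if Cbl-b-/- replicate 1 was. Members higher at an unadjusted p under 0.05 numbered 5 in limma, 2 in the ANOVA and 2 among rows above the median level, where 3 members remained, and 2 to 6 with an array left out. Members without overlap numbered 2 among rows above the median level and 4 to 7 with an array left out, and the median log2 fold change was 0.66 and 0.36 to 0.60. Rows that met the thresholds numbered 434 in limma, 267 in the ANOVA, 176 above the median level and 428 to 790 with an array left out (790 without Cbl-b-/- replicate 2). The study reported fewer than any of these, counted as genes, at the same cutoffs, and the reason was not tested. Mcpt1, at background, turned to −0.016 with cyclic loess, −0.0051 without Cbl-b-/- replicate 2 and −0.0042 without Cbl-b-/- replicate 3, in a range of −0.051 (WT replicate 3 dropped) to 0.057. Hdc turned to −0.20 without Cbl-b-/- replicate 2 (highest value 0.70, with replicate 3 dropped), a setting chosen for that gene after seeing the data. The causes were not tested. With the replicate number as a block, 3 members passed the unadjusted p (Tpsb2, Tpsab1 and Mcpt8) and 453 rows met the thresholds. Deviations of same-numbered arrays correlated at 0.23, 0.09 and 0.25, and Cbl-b-/- replicate 1 correlated with WT replicate 2 at 0.23 as well, so the number is not taken as a pairing. Choosing another row of a symbol could change nothing, since each member has 1 row. Low signal limits Tpsab1, Mcpt1, Mcpt2 and Mcpt8.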

Other observations

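Mcpt9 and Cma2, further chymase genes of the chromosome 14 cluster, share 2 rows that carry both names, so neither gene could be read on its own. In the first row the values were 4.94, 5.21 and 5.28 in the Cbl-b-/- arrays and 4.92, 4.79 and 4.75 in the WT arrays, and in the second 4.57, 4.84 and 4.87 against 4.55, 4.40 and 4.36. Every Cbl-b-/- array lay above every WT array in both, as in 8.66% of all rows. The margin was narrow, at 4.94 against 4.92 and 4.57 against 4.55. The log2 fold change was 0.32 in each (unadjusted p = 0.0265 and 0.0236 in limma), at levels under the background guide. Since the 2 rows carry the same names, they are not taken as separate results. A row shared by Adora3, a mast cell adenosine receptor gene, and Tmigd3 stood at a log2 fold change of −0.067, with a standard error of 0.11.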
